A study of Mus musculus with 2 samples.

Results

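The cytosolic ribosomal protein genes were taken by name: gene probes whose RefSeq accession carried a mouse symbol of the Rpl, Rps, Rpsa or Rplp series, leaving out the Rps6k kinases, which share only the prefix. This gave 73 genes, measured by 98 probes, of 10149 genes that could be named on the array. Of the 80 proteins of the mammalian cytosolic ribosome, 69 were on the array by name, and 66 of them were among the 73 (30 of the small, 40S subunit and 36 of the large, 60S subunit). The other 7 members are 6 paralogs (Rpl3l, Rpl7l1, Rpl22l1, Rpl36al, Rpl39l and Rps27l) and Rps19bp1, which encodes a protein that binds Rps19. Rps15a, Rpl4, Rpl5, Rpl10a, Rpl17, Rpl23a, Rpl26, Rpl32, Rpl34 and Rpl36a were among the ribosomal proteins with no probe of that symbol and are not analysed here.

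The samples were 2 extracts of siKlf4/EB5 mouse embryonic stem (ES) cells, each hybridised to its own two-colour Agilent array. EB5 cells, grown on gelatin without feeders, had received siRNA against Klf4 together with the pCAGEGFP-IP plasmid, and were kept for 24 h, then under puromycin for a further 24 h, and lysed for RNA. ES cell RNA was labelled with Cy3 on both arrays. Cy5 labelled the comparison RNA, the Universal Mouse Reference RNA, pooled in equal parts from 11 cell lines of embryo, embryo fibroblast, kidney, liver, lung macrophage, B cell, T cell, mammary, muscle myoblast, skin and testis origin. EB5 cells without the siRNA and arrays with the dyes exchanged are not analysed here, so a ratio compares siKlf4 ES cells with the pool, holds no estimate of the siRNA's effect, and sample and dye cannot be told apart in it.

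Klf4 itself, the siRNA's target, stood above the pool at log2 ratios of 0.43 and 0.59, which does not check the knockdown because no unsilenced cells were measured beside it. The labelled cell type was borne out by 10 of 11 measured ES cell markers, which were higher than the pool at a median log2 ratio of 3.53, with Fgf4 at 0.00; Nanog is not analysed here. All 8 measured fibroblast markers were lower (median -2.81), and of 8 primitive endoderm markers 5 were lower and 1, Lama1, was higher. In bulk RNA, fewer cells of a type and less RNA per cell cannot be told apart. The labels do not say that the extracts came from separate cultures, so p-values measure only the spread between these arrays, which may be technical.

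Ribosomal proteins bind the ribosomal RNAs in the nucleolus and build the subunits that read mRNA (the small subunit) and join amino acids (the large subunit). Their mRNAs are among the most abundant in growing cells, and most begin with a run of pyrimidines, the TOP motif, through which mTOR signalling sets their translation. Paralogs such as Rpl39l and Rpl3l can take the place of the common protein in particular tissues, and free Rpl5 and Rpl11 bind Mdm2, the ubiquitin ligase of p53.

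The probes are 60-base oligonucleotides of the sense strand. Those shown first carry paralog ratios and a lower ratio described here. Each is named by its gene and by the base of its transcript accession at which it begins, as given in the array files.
Rpl22l1, from base 56: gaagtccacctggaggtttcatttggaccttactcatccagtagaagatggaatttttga
Rps27l, from base 146: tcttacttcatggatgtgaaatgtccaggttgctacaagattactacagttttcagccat
Rpl3l, from base 819: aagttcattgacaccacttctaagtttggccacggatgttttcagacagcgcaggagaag
Rpl35, from base 215: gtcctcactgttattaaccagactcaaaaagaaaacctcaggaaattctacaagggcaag

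The next set shows why probes of a gene are not independent measurements, and where the scanner reached its ceiling. The Rpsa probes overlap, with their 49 shared bases in capitals. The Rpl7a probes lie apart on the same transcript, and the second was saturated in both channels on both arrays. The Rpl21 probe was saturated in the reference channel on both arrays.
Rpsa, from base 166: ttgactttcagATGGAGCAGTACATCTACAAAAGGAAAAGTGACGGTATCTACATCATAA
Rpsa, from base 177: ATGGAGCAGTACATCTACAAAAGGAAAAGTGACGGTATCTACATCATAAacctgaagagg
Rpl7a, from base 198: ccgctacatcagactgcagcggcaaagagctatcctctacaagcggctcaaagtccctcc
Rpl7a, from base 491: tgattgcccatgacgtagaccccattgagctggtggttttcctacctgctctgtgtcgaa
Rpl21, from base 298: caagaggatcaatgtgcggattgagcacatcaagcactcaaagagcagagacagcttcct

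Ribosomal protein spots were so bright that they made up more than a proportional part of the scanner's saturated spots. Of 67 gene probes of the whole array with a saturated spot in some channel, 36 were ribosomal protein probes. Of 25 gene probes saturated in both channels on both arrays, 18 were. In the ES channel 22 and 31 of the 98 member probes were saturated on arrays 1 and 2, and in the reference channel 28 on each. At the other end of the range, all 98 exceeded the level that 95 percent of negative controls stayed under, whichever channel or array was looked at. The dimmest ES spot, that of Rpl37, stood 181 and 193 units over its local background, against negative control limits of 155 and 178, so the group spans nearly the whole scale of the scanner.

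**Figure D1:**
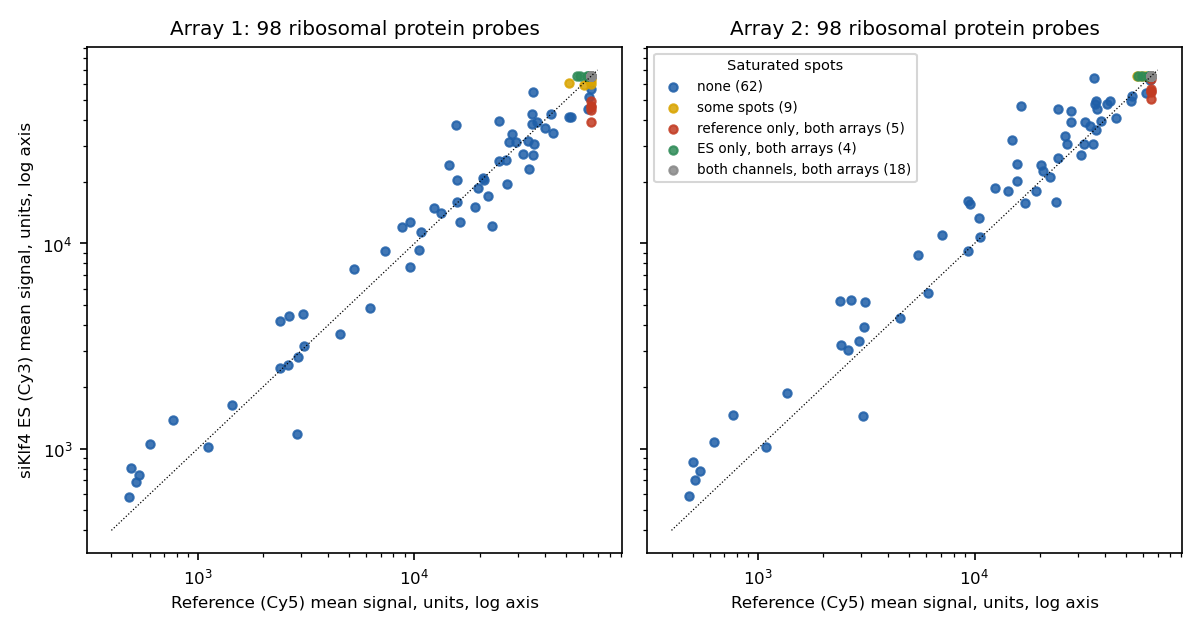
Mean scanner signal of the 98 ribosomal protein probes in the siKlf4 ES channel (Cy3, vertical) against the reference channel (Cy5, horizontal), in arbitrary units on log axes, for array 1 (left) and array 2 (right), before background correction and normalization. Each point is a probe, coloured by where its spots were saturated; the dotted line marks equal signals, and the 18 grey probes pile up at the ceiling, where the highest signal was 65517 units.

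By the brightest probe of each gene, 24 of the 73 members were higher in siKlf4 ES cells than in the pool, 20 were lower and 29 did not pass (limma, Benjamini-Hochberg adjusted p under 0.05 over 21028 probes). Over all probes tested, 31.6 percent were higher and 31.4 percent were lower at the same threshold. Tested with limma's treat against an absolute log2 ratio of 0.5 in place of 0, 8 members were higher and 1 was lower, where 9.48 percent and 8.77 percent of all probes were. The median log2 ratio of the members was -0.11, beside -0.01 over all named genes. That median is the value the normalization gives to a fully saturated spot. The 17 genes whose brightest probe was saturated in both channels on both arrays all had a log2 ratio of -0.11, -0.01 on array 1 and -0.20 on array 2, and those probes hold no ratio. Rpl6, Rpl7a, Rpl21, Rpl29, Rps2 and Rps6 among these genes have another probe that could be read. The 17 are Rpl3, Rpl6, Rpl7a, Rpl8, Rpl12, Rpl13, Rpl21, Rpl27, Rpl29, Rplp1, Rps2, Rps6, Rps10, Rps18, Rps20, Rps21 and Rps23.

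Of the other 11 genes with a saturated brightest probe, 3 were saturated only in the reference on both arrays and give a bound in 1 direction. The bound sets the dimmer channel's normalized signal against the saturated one, rests on the dye normalization, and is open to dye bias because the dyes were never exchanged. The same ratio of signals over local background is therefore given before normalization too. Rpl31, at the rim of the tunnel through which the new protein leaves the ribosome, had ES signals of 44682 and 54677 against the ceiling and after normalization the reference exceeded them at least 1.42-fold (limma, adjusted p = 0.000234), where the ratio before it was 1.33-fold. Rpl41, the smallest ribosomal protein, had by its brightest probe a reference signal at least 1.39-fold above that of the ES cells after normalization and 1.29-fold before it. For Rps4x, the X-linked form of Rps4, these values were 1.26-fold and 1.18-fold. Rps29, a zinc-finger protein of the small subunit, was saturated only in the ES channel and was at least 1.08-fold higher there after normalization, which did not pass (limma, adjusted p = 0.136), and 1.16-fold before it. Another 7 genes, among them Rpl28, Rps9, Rps14, Rps16, Rps19 and Rps28, were saturated in some spots, with log2 ratios between -0.14 and 0.13. Only Rps28 passed among these, and it is counted among the 20 lower members. Its reference was saturated on both arrays and its ES spot on array 2. Its ratio of -0.20 on array 2 is the value of a fully saturated spot, and -0.09 on array 1 is a bound, so the call rests on no full ratio.

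The ratios that can be read come from probes without a saturated spot, a choice made after the data were seen. They exist for 53 members; for 8 of these (Rpl6, Rpl7a, Rpl21, Rpl29, Rpl41, Rps2 and Rps6 among them) the readable probe was not the brightest one. Of the 53, 27 were higher in siKlf4 ES cells, 18 were lower and 8 did not pass. The shares over all probes, for these and the subunit counts below, were 31.6 percent higher and 31.4 percent lower. Their median log2 ratio was 0.12, the middle part of them lay between -0.22 and 0.46 (lower and upper quartiles), and 38 differed from the pool by less than 0.5 in log2 ratio. All named genes had a median of -0.01 and quartiles of -0.23 and 0.26. A 2-fold difference was reached by 5 of the 53 upwards and by 1 downwards, and by 5.08 and 5.19 percent of all probes. Without background correction 2 were at least 2-fold higher. The log2 ratio was beyond the largest absolute one of a negative control spot, 0.52, for 15 of the 53.

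**Figure D2:**
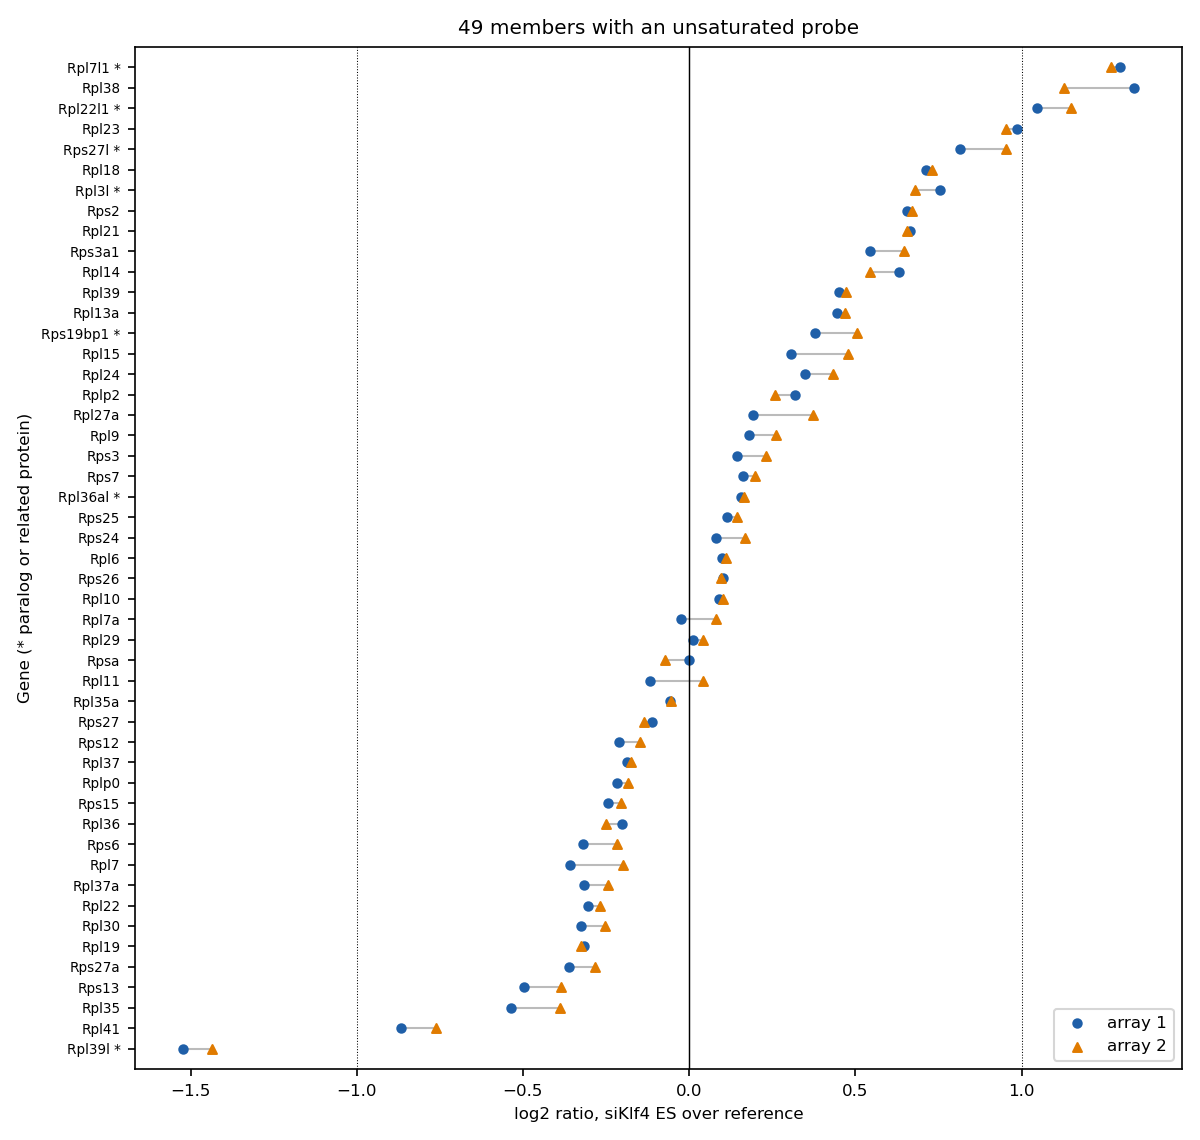
Log2 ratio of siKlf4 ES cells over the reference pool for 49 of the 53 ribosomal protein genes with an unsaturated probe, ordered by their mean. Circles are array 1, triangles are array 2, the grey line joins them, dotted lines mark 2-fold in either direction, and asterisks mark the paralogs and Rps19bp1; the means run from -1.48 (Rpl39l) to 1.28 (Rpl7l1).

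The arrays repeated each other closely. Of the 53 genes, 51 had the same sign on both, and the median absolute difference between arrays was 0.071, beside 0.059 over all probes. Array 1 gave the lower ratio for 40 of the 53. The shares of all probes with the same sign, or with the lower ratio on array 1, are not given here. The differences of array 1 minus array 2 were widest for Rpl38, at 0.21, and for Rpl27a and Rpl15, at -0.18 and -0.17, where the SD of that difference over all probes was 0.11. The spread among members, an SD of 0.56 over the 53 means, was therefore several times the difference between arrays for most genes.

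In the small subunit, 18 of 30 members had a readable probe, of which 9 were higher, 7 lower and 2 not passed, with a median log2 ratio of 0.11. Rps2, which lies at the mRNA entry of the small subunit, was 1.58-fold higher by a readable probe from base 891, at 0.65 and 0.67 (limma, adjusted p = 4.27e-05). The 3 other Rps2 probes were saturated in some or all spots and stood between -0.11 and -0.05, so the value rests on 1 readable probe.

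Other higher genes of the small subunit were closer to the pool. Rps3a1, which lies near the mRNA exit, stood at 0.54 and 0.65, with a mean of 0.60. Rps3, at the mRNA entry, stood at 0.19, Rps7 at 0.18, Rps25 at 0.13 and Rps24 at 0.12. Rps25 had the only called ratio among the 53 whose sign turned with the scaling, to -0.05 with median centring. The calls of Rps3, Rps7, Rps24 and Rps25 were each lost under some other scaling of the arrays, and an offset of 0 lost all 4.

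Lower genes of the small subunit formed a narrow range. Rps13 stood at -0.50 and -0.38, with a mean of -0.44 ± 0.080 (SD, n = 2; limma, adjusted p = 0.000469). Rps6, the substrate of the S6 kinases, was saturated by its brightest probe and stood at -0.32 and -0.22 by a readable one, a mean of -0.27. Rps15, a protein of the decoding region, stood at -0.22, Rps12 at -0.18 and Rps27 at -0.12. Each of these was below 0 on both arrays and within 0.5 of the pool in its mean. Without background correction Rps6 (-0.20) and Rps12 (-0.12) did not pass. Rps26, at 0.10, and Rpsa, the laminin receptor precursor, at -0.04, did not pass.

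Rps27a, made as a fusion with ubiquitin, gave opposite answers by its readable probes. From base 471 the ratios were -0.36 and -0.28, and from base 77 they were 0.51 and 0.56. Both means, -0.32 and 0.53, passed (limma, adjusted p = 0.00119 and 0.000117), and the mean of both probes was 0.11. The gene is therefore counted as lower only because its brighter probe was.

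In the large subunit, 28 of 36 members had a readable probe, of which 12 were higher, 10 lower and 6 not passed, with a median of 0.06. Rpl38, known from mice in which its loss alters translation of Hox mRNAs and the axial skeleton, was the highest at 1.34 and 1.13. The mean of 1.23 ± 0.15 (SD, n = 2) is 2.35-fold (limma, adjusted p = 2.48e-05). Its ES spots were dim, at 646 and 683 units over background, as were its reference spots, at 224 and 249, and without background correction the log2 ratio was 0.65. Rpl23, a protein of the subunit interface that can also bind Mdm2, had reference signals of 2249 and 2321 units above background. Its ratios of 0.99 and 0.95 gave a mean of 0.97 ± 0.023 or 1.96-fold (limma, adjusted p = 1.12e-05), with 0.83 to 0.99 over 6 ways of scaling the arrays.

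Others on the higher side were Rpl18 (0.71 and 0.73, mean 0.72), Rpl14 (mean 0.59), Rpl13a (0.46), Rpl39 (0.46), Rpl15 (0.39) and Rpl24 (0.39). Rpl13a is also known as the component of a complex that silences inflammatory mRNAs, and Rpl24 as the gene mutated in the Belly spot and tail mouse. Nearer to the pool were Rpl27a (0.19 and 0.37, mean 0.28) and Rpl9 (mean 0.22), which with median centring stood at 0.10 and 0.07 and did not pass. The brightest Rpl21 probe was at the ceiling. A dim Rpl21 probe from base 1234 stood at 0.66 and the probe from base 298, printed above, at -0.66 with its reference channel saturated, so this gene has no direction here. The counts of readable members take Rpl21 as higher only through the dim probe.

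On the lower side of the large subunit, Rpl41 was lowest. Its readable probe, which shares 39 bases with the saturated one, stood at -0.87 and -0.76, with a mean of -0.81 ± 0.075 (SD, n = 2) or 1.76-fold lower (limma, adjusted p = 3.68e-05). Rpl35, next to the tunnel exit, stood at -0.54 and -0.39, a mean of -0.46 ± 0.10 (limma, adjusted p = 0.00059). Rpl19, another protein of the tunnel rim, stood at -0.32 on both arrays. Of the 4 tunnel rim proteins measured, from a list of 7, Rpl19, Rpl31 and Rpl35 were lower and Rpl39 was higher. Rpl31 gave only a bound, so by readable probes 2 were lower and 1 was higher. Over all probes, 31.4 percent were lower and 31.6 percent higher. Rpl30, Rpl22, Rpl37a and Rpl7 stood between -0.29 and -0.28, Rpl36 at -0.23 and Rpl37 at -0.18. Without background correction Rpl7 (-0.21) and Rpl37 (-0.05) did not pass. Nor did Rpl37 with median centring, at -0.03. Its spots were dim, at 181 and 193 units over background in the ES channel and 104 on both arrays in the reference. Before normalization its ES signal was thus the larger, and it stood lower only after normalization.

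Proteins of the large subunit without a passing ratio by their brightest readable probe were Rpl6 (0.11), Rpl10 (0.10), Rpl7a (0.03), Rpl29 (0.03), Rpl11 (-0.04) and Rpl35a (-0.06). A dimmer readable probe of Rpl29, from base 51, passed as lower at -0.21 and -0.34 (limma, adjusted p = 0.00386). Rpl11, the partner of Rpl5 and 5S ribosomal RNA in binding Mdm2, stood at -0.12 and 0.04 by its brighter probe and was higher by its other probe, at 0.21 and 0.31. The stalk, which recruits the translation factors, could be read in part. Rplp0, its base, stood at -0.22 and -0.19, with -0.22 as the mean of a second, dimmer probe, and was 1.15-fold lower. Without background correction it stood at -0.13 and did not pass. Rplp2, an acidic stalk protein, stood at 0.32 and 0.26, a mean of 0.29. Rplp1 and Rpl12, the other proteins of this group, were at the ceiling in every spot.

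The paralogs were the widest apart. Of 7 related genes, 6 were higher and 1 was lower, with a median of 0.72, and none had a saturated spot. Of all probes, 31.6 percent were higher and 31.4 percent lower. With processed signals, an offset of 0 or median centring, 5 were called higher.

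Rpl39l, the paralog of Rpl39 best known from male germ cells, was 2.79-fold lower than the pool and the lowest of the 53. Its ratios were -1.52 and -1.43, with ES signals of 1185 and 1442 units against 2883 and 3060 in the reference, and the mean was -1.48 ± 0.064 (SD, n = 2; limma, adjusted p = 4.06e-06). Rpl39, by contrast, stood at 0.45 and 0.47, by a dim probe with reference signals of 145 and 138 units above background. A testis line is among those of the pool, and its part in the Rpl39l ratio was not tested.

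Rpl22l1 and Rpl22 also stood on opposite sides. Rpl22l1 was at 1.05 and 1.15, with reference signals of 2410 and 2399 units, and its mean of 1.10 ± 0.073 (SD, n = 2) is 2.14-fold (limma, adjusted p = 1.2e-05). Rpl22, the protein reported to repress Rpl22l1 mRNA in mice, stood at -0.30 and -0.27, a mean of -0.29 ± 0.026 (limma, adjusted p = 0.0014). Rps27l, a p53 target, was 1.84-fold higher than the pool at 0.81 and 0.95 (limma, adjusted p = 3.88e-05), beside -0.12 for Rps27. Rpl7l1 stood at 1.30 and 1.27, 2.43-fold (limma, adjusted p = 4.44e-06), beside -0.28 for Rpl7, but its reference signals were only 111 and 124 units above background and its ratio was 0.51 without background correction. In these 4 pairs the paralog and the common gene thus lay on opposite sides of the pool on both arrays. Their means did so under each of the 6 scalings. The common genes all stayed within the largest absolute ratio of a negative control spot, 0.52. Rpl7 (-0.21) did not pass without background correction. Of all probes, 31.6 percent were higher and 31.4 percent lower, and whether other pairs of genes lie apart as often was not tested.

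The other relatives had no readable partner. Rpl3l, the Rpl3 paralog of heart and skeletal muscle, was higher at 0.76 and 0.68, or 1.64-fold (limma, adjusted p = 4.49e-05), while Rpl3 was at the ceiling. Whether this or another paralog probe also reads mRNA of the common gene was not tested. Rps19bp1 stood at 0.38 and 0.50, and Rps19 was saturated in all but 1 spot. Rpl36al stood at 0.15 and 0.17 by a probe from base 414 and at 0.44 and 0.49 by one from base 426, which shares 48 bases with it. Its first value lost its call under 3 of the scalings.

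Some of the largest ratios came from dim spots. Of the 6 readable members whose reference signal was under 1000 units above background on both arrays (Rpl7l1, Rpl21, Rpl37, Rpl38 and Rpl39 among them), 5 were higher, including 3 of the 5 that were at least 2-fold higher. Over all probes, 31.6 percent were higher and 5.08 percent at least 2-fold higher. The shares among equally dim probes of the whole array are not given here. At the other end, 4 readable members had a spot over 60000 units without being marked saturated: Rpl37a, Rplp0 and Rps13, which were lower, and Rps2. Rpl22l1, Rpl23, Rps27l and Rpl39l were in neither group. The part of signal strength in these ratios was not tested.

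**Figure D3:**
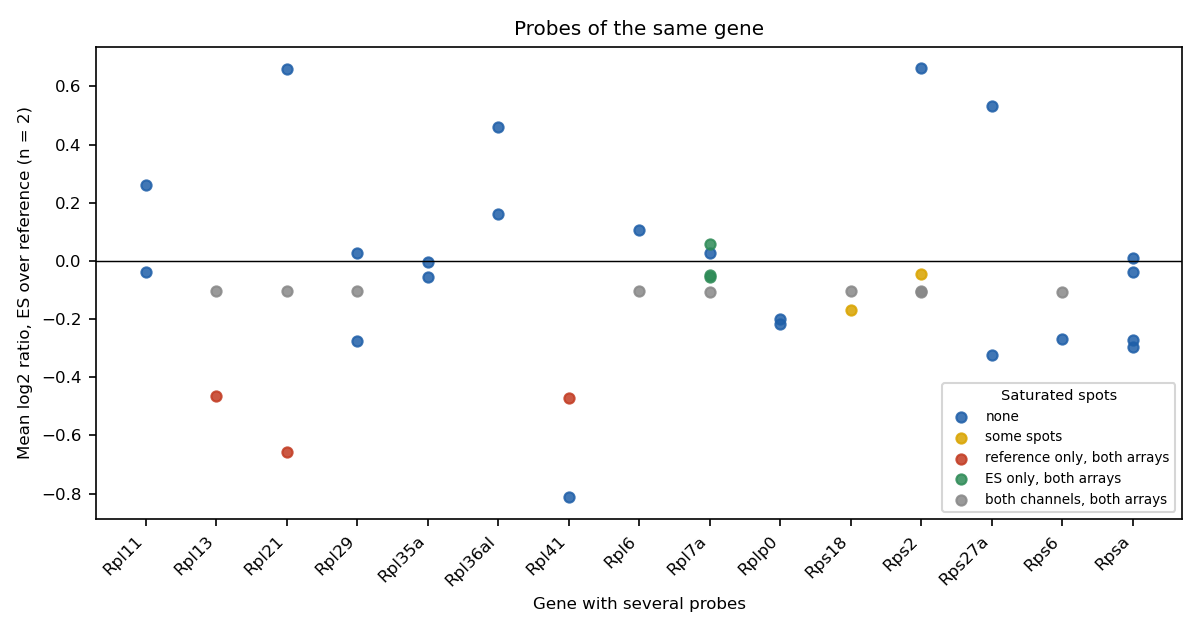
Mean log2 ratio of siKlf4 ES cells over the reference pool (n = 2 arrays) for each probe of 15 of the 16 ribosomal protein genes with several probes, coloured by saturation. Probes of Rpl21 and Rps27a lie far apart, whereas those of Rplp0 and Rpl35a nearly coincide.

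Where 2 probes of a gene could both be read and did not overlap, they differed by at most 0.30 for Rpl11, Rpl29, Rplp0 and Rpsa, and for Rps27a by -0.86 (from base 471 minus from base 77). The 4 Rpsa probes fell into the overlapping pair printed above, at -0.27 and -0.29, and the probes from bases 578 and 981, at 0.01 and -0.04. The overlapping pair passed as lower and the others did not pass. Rpl21 was among those with probes more than 1 apart, here a dim probe and one saturated in the reference. Base composition of the probes was not far from that of the array, with a median GC content of 43.3 percent over the 62 readable member probes and 41.7 percent over all readable probes. Across the 62 probes, which share the same arrays and in part the same genes, Spearman's correlation of GC content with the log2 ratio was -0.089, and that of the probe's start with it -0.054.

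Counts of members from known groups moved with the scaling. Of 16 measured genes mutated in Diamond-Blackfan anaemia, an inherited failure of red cell production, 4 were higher, 5 lower and 7 not passed by the brightest probe, with a median of -0.08. Only 10 of them had a readable probe, by which 4 were higher, 3 lower and 3 not passed, with a median of 0.03. Over the 6 scalings 2 to 5 of the 16 were called higher and 4 to 8 lower by the brightest probe. Over all probes, 31.6 percent were higher and 31.4 percent lower under the main setting. The counts of the subunits by the brightest probe were 7 higher, 8 lower and 15 not passed in the 40S and 11 higher, 11 lower and 14 not passed in the 60S. In the 40S the scalings gave 2 higher and 7 lower with an offset of 0, 3 and 8 with median centring, 4 and 9 with Agilent's processed signals, 5 and 11 with the members left out of the loess fit, and 8 and 6 without background correction. In the 60S they gave 9 to 12 higher and 8 to 14 lower. All these counts by the brightest probe include saturated probes. Fully saturated spots stood at -0.11 under the main setting and at -0.20 with the members left out of the loess fit. Their part in these shifts was not tested. Rack1 and Fau are ribosomal proteins that the naming rule leaves out. Rack1, a signalling scaffold on the small subunit, was at 0.09 and 0.04. Fau, a fusion of a ubiquitin-like protein with Rps30, was at 0.15 and 0.12 by its readable probe, and its brighter probe had saturated spots.

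Genes for factors that build the ribosome were mostly higher than the pool. Of 34 measured biogenesis factors 30 were higher, 1 was lower and 3 did not pass, with a median log2 ratio of 0.98 and 16 at least 2-fold higher. Shares over all probes, for this list and those below, were 31.6 percent higher, 31.4 percent lower and 5.08 percent at least 2-fold higher. Ebna1bp2, a nucleolar factor of the large subunit, stood at 1.61 and 1.65 (3.10-fold; limma, adjusted p = 2.28e-06). Wdr12, of the complex that also holds Pes1 and Bop1, stood at 1.28 and 1.43 (2.56-fold; limma, adjusted p = 8.67e-06). Rrp1, another nucleolar protein, was the lower one, at -0.32 and -0.30. The median of this list stayed between 0.73 and 1.00 over the scalings. The difference between this list and the ribosomal proteins was not tested.

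RNA polymerase I, which transcribes ribosomal DNA, and its factors were on the same side, with 6 of 8 measured genes higher, 0 lower and 2 not passed, and a median of 0.58 (0.24 without background correction). Polr1b, its second largest subunit, stood at 1.47 and 1.42, and Polr1c, shared with RNA polymerase III, at 0.89 and 1.00. The other known TOP mRNAs, for translation factors and associated proteins, stood nearer to the ribosomal proteins. Of 11 measured, 2 were higher, 6 lower and 3 not passed, with a median of -0.17, which was -0.06 without background correction. The poly(A)-binding protein gene Pabpc1 was at -0.62 and -0.73 and the elongation factor Eef2 at -0.33 and -0.38. Eef1g and Eef1d, of the elongation factor 1 complex, were higher, at means of 0.53 and 0.33.

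Among regulators of TOP mRNAs, 4 of 6 measured genes were higher and 2 did not pass. Eif4ebp1, a translation repressor that mTOR inactivates, stood at 1.37 and 1.25 (2.47-fold; limma, adjusted p = 7.54e-06), and its relative Eif4ebp2 at 1.25 and 1.01. In the Mdm2 and p53 group, which free ribosomal proteins act on, Mdm4 (1.09 and 1.21) and Mdm2 (0.31 and 0.59) were higher, although Mdm2 stood at 0.14 and did not pass without background correction. Trp53 (-0.13 and -0.12) and its target Cdkn1a (-1.60 and -1.67) were lower. Rps27l, a p53 target as well, thus stood on the other side of the pool from Cdkn1a on both arrays.

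**Figure D4:**
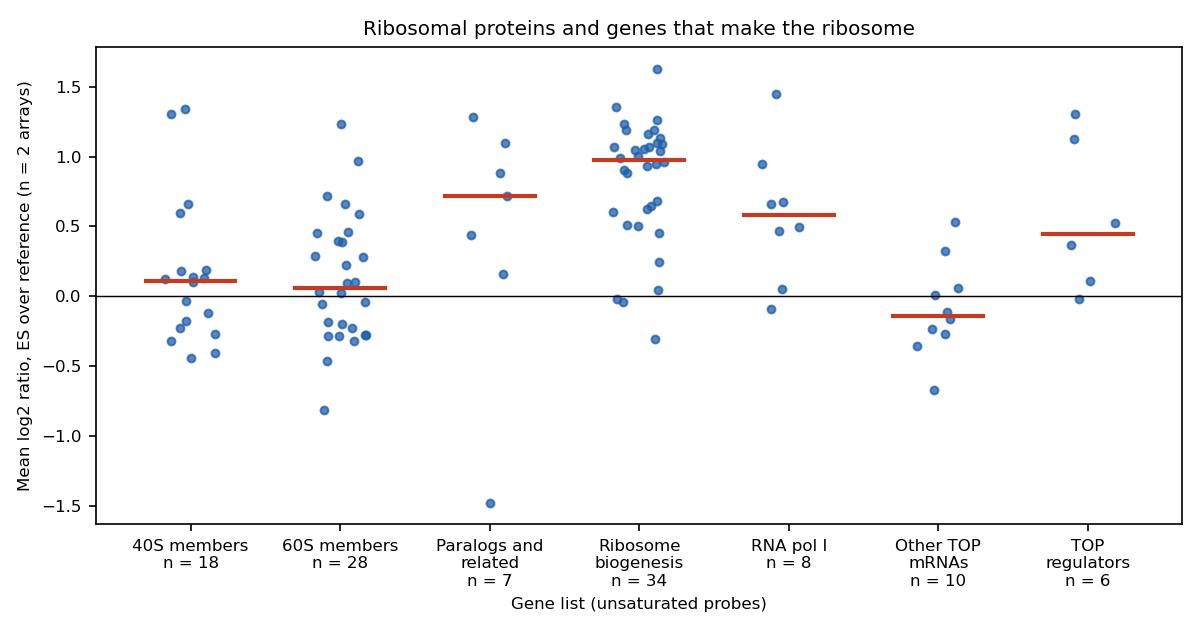
Mean log2 ratio of siKlf4 ES cells over the reference pool (n = 2 arrays) for unsaturated probes of ribosomal protein genes by subunit, their paralogs, and related gene lists. Each point is a gene, sideways position is arbitrary, and the red bar is the list's median: 0.11 for 40S members, 0.06 for 60S members, 0.72 for paralogs and Rps19bp1, 0.98 for biogenesis factors and 0.58 for RNA polymerase I genes.

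Promoter sequences of the members were set beside those of all genes. Of the 73, 57 had an entry in a RefSeq table of the bases around each transcription start (build GRCm38.p6). A pyrimidine hexamer as in TOP mRNAs (CTTTCC, the hexamer CTTTTC, the hexamer CTTTCT or the hexamer CTTTTT, transcript strand, beginning within the 11 bases around the annotated start) was found in 12 of the 57, or 21.1 percent, and in 2.35 percent of 27025 genes. CCGGAAG, as bound by Ets factors, occurred on either strand from 250 bases before to 50 after the start in 24, or 42.1 percent, against 9.93 percent of all. GCCATNTT, as bound by YY1, occurred in 19.3 percent against 6.96 percent, and TATAAA in 10.5 percent against 15.7 percent. A match is only a stretch of letters, and the search depends on where the table puts the start.

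The stretches from 100 bases before to 20 after the start are shown, from RefSeq. They belong to a higher gene and a lower gene that both hold a searched hexamer, and to the paralog Rpl22l1, which holds none of these. Rpl22l1 does carry another run of pyrimidines, ttctcttccc, next to its annotated start. Capitals mark the hexamers and TATAAA.
Rpl18, chr7:45717971-45718090, plus strand: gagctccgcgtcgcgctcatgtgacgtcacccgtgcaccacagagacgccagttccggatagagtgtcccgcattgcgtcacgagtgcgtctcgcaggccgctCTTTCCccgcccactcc
Rpl35, chr2:39005112-39005231, minus strand: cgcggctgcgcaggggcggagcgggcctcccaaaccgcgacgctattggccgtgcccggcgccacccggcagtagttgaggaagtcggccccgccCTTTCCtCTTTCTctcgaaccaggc
Rpl22l1, chr3:28805408-28805527, plus strand: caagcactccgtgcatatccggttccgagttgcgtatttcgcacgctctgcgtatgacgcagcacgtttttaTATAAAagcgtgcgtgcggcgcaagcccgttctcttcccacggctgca
Rpl18, at 0.72, and Rpl35, at -0.46, thus carry the same kind of start and lay on opposite sides of the pool.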

How the data were processed

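Per the file headers, the scanner software was Agilent Feature Extraction A.7.5.1. The authors' deposited intensity values are spot means, local backgrounds, and processed signals from which the software had subtracted the local background and removed dye bias by LOWESS. The deposited log10 ratios are red over green processed signals. A deposited table of log10 values (medians 2.92 and 2.92) gave the same difference between arrays as those ratios within 0.001 for 99.6 percent of gene probes. Neither entered the fits, and how that table was made is unknown. No source used here names a genome build.

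Mean signals were corrected by normexp on the median local background (offset 50) and normalised by loess within each array, control spots at weight 0, with limma 3.58.1 in R 4.3.3. Log2 ratios are ES cells over reference. Probes with outlier spots were left out (24 of 21052, no member). Ratios were tested against 0 with lmFit and eBayes (1 residual and 4.24 prior degrees of freedom), Benjamini-Hochberg adjusted over 21028 probes. The calling was also run on simulated data drawn with the SDs between these arrays. Those data held no dye bias or saturation, so they do not bear on either.

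Accessions were named through RefSeq: 10422 probes received 1 symbol and 10630 none. The brightest probe stood for a gene. The alternatives concerned background, dye normalization, filters, probe choice, the tested limit and leaving out an array. The 24 members followed through them are those with the 6 highest and 6 lowest ratios, the paralogs and their partners, the stalk proteins, Rpl11, and the 3 with the widest difference between arrays, where unsaturated. Of related lists, the 2 called genes furthest from 0 in each direction were named. Other members are named to account for the family, except some whose results are not reported here; the counts include them. The members and lists were chosen with earlier results of these data known. The small number of arrays limits precision.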

Additional observations from a re-analysis of the deposited data

How the results depend on the processing

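No paired analysis was possible because the replicate numbers of the labels belong to a single group. Counts by direction over all members stayed within 1.5 times the main ones except as follows. With limma's treat against an absolute log2 ratio of 0.5 in place of 0, 8 of the 73 members were higher and 1 lower, and 11 and 2 of the 53 readable ones. Without background correction, 2 members were at least 2-fold higher, for the 73 as for the 53. The median of the members was -0.11, -0.19 to -0.01 with either array left out (values with no test), and 0.12 with saturated probes left out. For the 53 it was 0.10 to 0.14 with either array left out, 0.16 without background correction, 0.076 with an offset of 0, 0.088 with Agilent's processed signals, 0.080 with median centring and 0.090 with the members left out of the loess fit. These 53 and their alternatives were added after the data were seen. Counts within lists moved more. By the brightest probe, saturated ones included, 7 of the 40S members were higher and 8 lower. With an offset of 0, 2 were higher, with median centring 3 and with processed signals 4. Under the 6 scalings, 46 of the 53 kept their sign, with all 18 lower and 26 of the 27 higher calls among them. The others were Rps25 and 6 genes that did not pass. Of the 45 calls, 13 were lost under some scaling, all of genes with an absolute log2 ratio of at most 0.28. Of 24 members followed through the alternatives, Rps27a reversed, to 0.11 with the mean of all its probes, as did Rpl11 (-0.04, not passed), to 0.024 without background correction and 0.11 with the mean of its probes. Over those members and the tested settings, 238 results kept direction and call, 3 reversed, 21 lost the call and 2, of Rpl11, gained one. Leaving out an array is not tested; it gave 48 further values, of which Rpl11's changed sign, to 0.04 without array 1. Causes of these changes were not tested, except that treat asks for a larger ratio. Scanner saturation limits what these arrays hold for 20 members without a readable probe.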

Other observations

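Probes without a symbol that carry ribosomal protein sequence were searched for by runs of at least 25 bases shared with a member probe. A probe of an unnamed accession shares 43 bases with the saturated Rps10 probe and could be read: its log2 ratios were -0.53 and -0.46, with a mean of -0.49 ± 0.046 (SD, n = 2; limma, adjusted p = 0.000183). Another shares 28 bases with an Rps2 probe. It was saturated in the ES channel on both arrays and stood at 0.06 and -0.10. Whether the former probe reads Rps10 mRNA was not tested.

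The kinases that share the Rps6 prefix and were left out of the family spread more widely than most ribosomal proteins. Rps6ka1, an Erk-activated kinase, stood at 2.04 and 1.76, or 3.73-fold higher than the pool (limma, adjusted p = 1.03e-05). Rps6ka4, a nuclear kinase of the same family that modifies histone H3, stood at -1.62 and -1.60, or 3.05-fold lower (limma, adjusted p = 2.23e-06). Rps6ka5 was higher at 0.18 and 0.36, and Rps6ka3 did not pass at -0.14 and 0.05.

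The nucleolar list held some of its best known proteins on the higher side. Fbl, the methyltransferase of box C/D particles, stood at 0.87 and 0.90, its partners Nop56 and Nop58 at means of 1.14 and 1.19, and nucleolin, Ncl, at 1.15 and 0.99. Npm1, nucleophosmin, was higher at 0.46 and 0.75. The factors that act last in large subunit maturation, Eif6 and Sbds, stood at -0.02 and 0.04 and did not pass.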
